A study of Mus musculus with 8 samples.

Results

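The genes described here are the heat shock and chaperone genes whose symbols begin with Hsp or Dnaj, together with the Bag and Cct genes. Membership rests on the symbol and on no measured value, and 62 of the 10060 genes in the deposited counts matched. Molecular chaperones bind unfolded proteins and help them to fold, to reach their compartment or to be degraded. The HSP70 proteins (Hspa genes) work in cycles that J-domain proteins (Dnaja, Dnajb and Dnajc genes) start and that nucleotide exchange factors (the Bag proteins and the HSP110 proteins of Hsph1, Hspa4 and Hspa4l) end. HSP90 proteins mature kinases and receptors, and the ring-shaped chaperonins, cytosolic CCT and mitochondrial HSP60, enclose their substrates. In neurons this machinery also uncoats clathrin vesicles and keeps synaptic vesicle proteins folded.

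Reads of polyadenylated 3′ ends came from total brain of 5 mice with the Cstf2 allele D50A and of 3 wild-type mice. CSTF2 is the cleavage stimulation factor subunit whose RNA recognition motif contacts RNA downstream of a cleavage site, and the series asks how the substitution alters 3′ end formation. All mice were untreated, 50 days old and congenic on C57BL/6NCrl after 4 generations of backcrossing, with wild-type littermates as controls. The allele was inherited and not restricted to a cell type, so neurons and other brain cells cannot be separated here, and sex and zygosity were not among the labels used. The first of the 2 deposited tables covers a pair of cleavage sites, proximal and distal, inside the 3′-most exon (7951 genes, 54 of them chaperone genes). The second sets transcripts that end in an exon further upstream beside those ending in the 3′-most exon (6147 genes, 44 of them chaperone genes). The chaperone genes in both tables number 36, and there the tables share reads. The families are 3 Hsp90 genes, 10 Hspa and Hsph genes, 2 mitochondrial chaperonin genes (Hspd1 and Hspe1), Hspb11, Hspbap1, 4 Dnaja, 8 Dnajb and 22 Dnajc genes, 5 Bag genes and 6 Cct genes. Other genes of these families, such as the inducible Hspa1a and Hspa1b, were not listed under these symbols in either table, so they were not analysed.

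Libraries held 9616953 to 17530761 reads in the first table and 7075383 to 13145966 in the second. Chaperone genes took 1.22 to 1.40% and 1.87 to 2.08% of them. Levels are given in CPM, counts scaled to a common library size, and means are given ± SD over 5 mutants and 3 wild types. The labelled tissue was checked on oligodendrocyte markers, which summed to 3301 to 4108 CPM in mutants and 3909.8 to 4820 CPM in wild types, and on neuronal markers. Markers of cerebellar granule cells separated the libraries otherwise: the 8 of 10 listed genes measured in the first table summed to 334, 319, 337 and 348 CPM in mutants 1 to 4 and to 1635 CPM in mutant 5, against 2080, 1671 and 1562 CPM in wild types 1 to 3. Mutant 5 lay with wild type on this list, and none of the 8 genes was at 0 in a library. The 4 of 6 Purkinje cell markers in that table divided the libraries in the same way, at 364, 358, 323, 345 and 668 CPM in mutants 1 to 5, against 644, 609 and 697 CPM in wild types 1 to 3. The 3 of 6 astrocyte markers there (Aqp4, Slc1a2 and Aldoc) had a lower sum in every mutant, at 2953 to 3431 CPM in mutants and 3639.6 to 4002 CPM in wild types. Those of the second table (Gfap, Slc1a2 and Slc1a3) did not, since the genotypes overlapped, at 1147 to 2458 CPM in mutants and 1083 to 2022 CPM in wild types. The neuronal markers (Rbfox3, Snap25, Syt1 and Map2) summed to 5780, 5205, 4126, 5594 and 3539 CPM in mutants 1 to 5, against 3278, 3465 and 4546 CPM in wild types 1 to 3, so that wild type 3 lay among the mutants. In homogenised brain, fewer cells of a type and less RNA per cell cannot be told apart. The part of these lists in the results was not tested, and with mutant 5 left out, genotype and cerebellar marker level cannot be told apart. Cstf2 itself had 368 CPM ± 37.9 in mutants and 368 CPM ± 32.4 in wild type (SD, n = 5 and 3), which does not check the labels because the substitution need not change the amount of mRNA.

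Promoters of chaperone genes carry elements known from the heat shock and unfolded protein responses, and the genes that hold them are shown here because their levels are compared next. RefSeq promoter windows of GRCm38.p6 (250 bases before to 50 after the start) were found for 49 of the 62 genes. The heat shock element of 3 units, which the factor HSF1 binds, was searched as GAANNTTCNNGAA on both strands and was found in 4 of 49 windows (8.16%), against 179 of 27025 genes (0.662%). The 4 genes were Dnajb6, Hspd1, Hspe1 and Hsph1. Looser forms of 2 units, GAANNTTC and TTCNNGAA, were each found in 8 of 49 windows (16.3%), against 9.04 and 9.60% of all genes. Genes with only a 2-unit form, Dnajb4 among them, were not compared as a set. The endoplasmic reticulum stress element was searched as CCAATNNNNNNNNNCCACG on both strands and was found in 3 of 49 windows (6.12%), against 37 of 27025 (0.137%). These 3 genes were Hspa5, Hsp90b1 and Dnajc3, all of the endoplasmic reticulum. In the sequences below, written 5′ to 3′ on the strand of the gene, capitals mark the element.
Dnajb6, chr5:29735844-29735873, plus strand: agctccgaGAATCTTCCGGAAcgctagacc
Hsph1, chr5:149636279-149636308, minus strand: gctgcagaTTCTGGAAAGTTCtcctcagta
Hspd1, chr1:55088050-55088079, minus strand: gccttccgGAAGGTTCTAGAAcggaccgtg
Hspe1, chr1:55088051-55088080, plus strand: acggtccgTTCTAGAACCTTCcggaaggcc
Hspa5, chr2:34772020-34772049, plus strand: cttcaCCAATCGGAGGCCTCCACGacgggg
Hsp90b1, chr10:86705632-86705661, minus strand: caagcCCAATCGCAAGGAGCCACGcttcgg
Dnajc3, chr14:118937822-118937851, plus strand: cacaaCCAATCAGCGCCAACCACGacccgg
The lines for Hspd1 and Hspe1 are the same element read from both strands, since these genes lie head to head and share a start region. Hsp90b1 holds a second stress element nearer its start. A match is a description of these letters, not evidence of binding.

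Level changes of the genes with the 3-unit heat shock element or the stress element all had 95% intervals that included 0. The largest change and the widest interval were the first table's for Hsp90b1. On the log2 scale and as mutant over wild type, the 3-unit heat shock element genes differed by 0.0014 (95% interval -0.26 to 0.27) for Dnajb6, 0.033 (95% interval -0.23 to 0.29) for Hsph1, -0.15 (95% interval -0.49 to 0.19) for Hspe1 and -0.014 (95% interval -0.29 to 0.26) for Hspd1. For Dnajb6, Hsph1 and Hspd1 the sign depended on which libraries were used. Among the genes with the stress element the difference was -0.12 (95% interval -0.45 to 0.20) for Hspa5 and -0.084 (95% interval -0.40 to 0.23) for Dnajc3. Hsp90b1 had 0.91 (95% interval -0.32 to 2.15) in the first table and 0.31 (95% interval -0.23 to 0.85) in the second. None of the 7 passed edgeR's quasi-likelihood test after Benjamini-Hochberg adjustment in either table.

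Site usage within the 3′-most exon was tested for all 54 chaperone genes of the first table. edgeR called 0 of 54 at an adjusted p under 0.05 (0.0% of all 7876 genes tested), with a smallest adjusted p of 0.380. limma on the log ratio also called 0 (0.0% of all genes), and DESeq2 called 1, Dnajb5 (0.267% of all genes). At an unadjusted p under 0.05, edgeR listed 11 of 54, against 12.9% of all genes. Of these, 7 leaned toward the distal site (8.67% of all genes did) and 4 toward the proximal site (4.25%). The count moved with the library left out, as did the share of all genes listed in the same fit. It was 22 without mutant 5 (27.7% of all genes) and 22 without wild type 3 (24.4%). It was 3, 4 and 5 without mutants 1, 2 and 3 (6.8, 6.73 and 10.1% of all genes) and 3 and 1 without wild types 1 and 2 (5.33 and 3.8%). The genotypes did not overlap in 4 genes, Dnajc11, Dnajc24, Hsp90aa1 and Hsph1, against 4.15% of all genes. The median log2 change was 0.17 for the chaperone genes and 0.12 for all genes, and 34 of 54 lay above 0, against 59.2% of all genes. Mutant 5 lay nearer to the wild-type mean than to the mean of the other mutants in 44 of 54 genes (81.5%; 73.4% of all genes), and wild type 3 lay nearer to the mutant mean in 35 of 54 (64.8%; 67.1% of all genes). The plot of distal share shows the 11 genes by library.

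**Figure D1:**
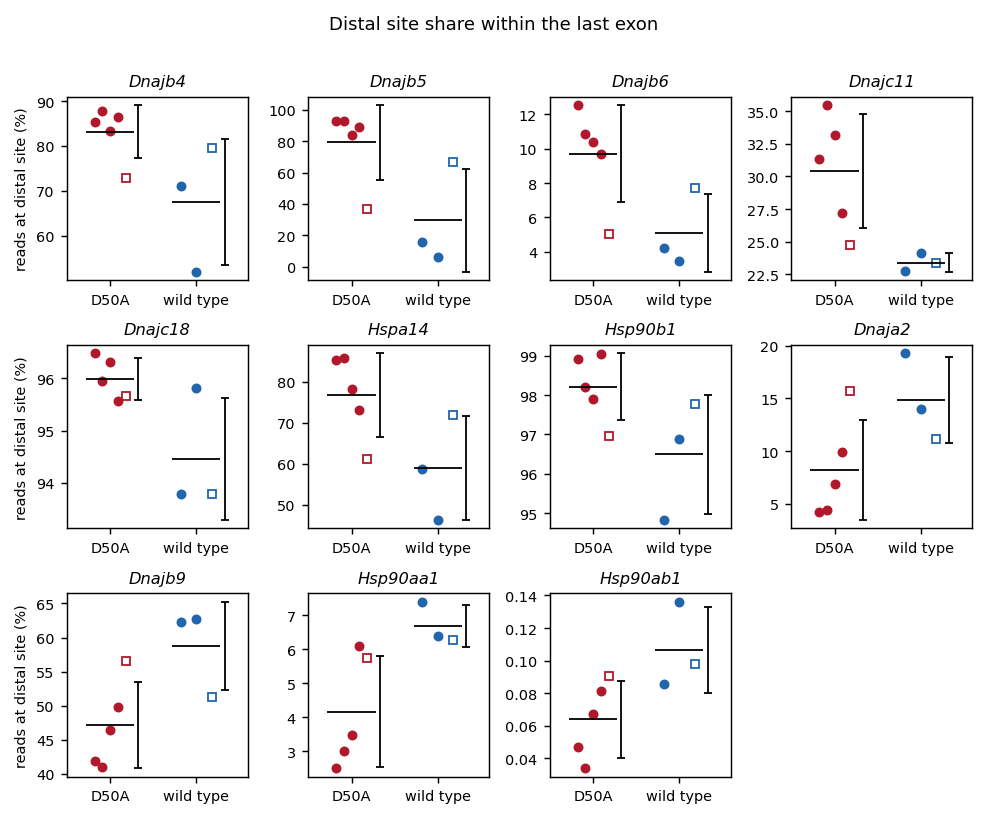
Share of reads at the distal of 2 sites in the 3′-most exon, in percent, for the 11 chaperone genes with an unadjusted p under 0.05 in edgeR (5 D50A mice left, 3 wild-type mice right). Horizontal lines are means, error bars are SD, and open squares are mutant 5 and wild type 3; in Dnajb5, mutants 1 to 4 sit between 84.0 and 93.0% and mutant 5 at 37.1%, against 15.8, 6.06 and 67.0% in wild types.

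Usage of the upstream against the 3′-most exon gave a like picture in the second table. edgeR and DESeq2 each called 0 of 44 chaperone genes (0.0% and 0.0833% of 6001 genes), and limma called 0 (0.0%). The smallest edgeR adjusted p was 0.282. At an unadjusted p under 0.05, edgeR listed 9 of 44 genes, against 14.0% of all genes. Of these, 7 leaned toward the 3′-most exon (10.4% of all genes) and 2 toward the upstream exon (3.63%). Without mutant 2, wild type 1 or wild type 2 the count of 9 was 5, 4 and 5 (8.98, 7.7 and 7.1% of all genes), and without mutant 5 or wild type 3 it was 12 and 11 (22.9 and 21.7%). The genotypes did not overlap in 4 genes, Dnajc2, Dnajc10, Dnajc11 and Dnajc27 (5.88% of all genes). The median log2 change was 0.18, against 0.17 for all genes, and 25 of 44 lay above 0, against 62.2% of all genes. With mutant 5 left out, edgeR called 3 of the 44 after adjustment, Dnajc12, Dnajc27 and Hspa12a, and 3.93% of all genes. With wild type 3 left out it called 1, Dnajc27, and 2.68% of all genes.

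Levels, from the sum of both sites, gave no chaperone gene called by edgeR or DESeq2 in either table (edgeR 0.0% of all genes in both; DESeq2 0.33% in the first and 0.0% in the second). In the first table, 9 of 54 had an unadjusted p under 0.05, against 14.3% of all genes, with 8 higher (7.29% of all genes) and 1 lower in mutants (7.05%). In the second, 5 of 44 did, against 15.1% of all genes, with 4 higher (7.6%) and 1 lower (7.47%). The count of 9 was 17 without mutant 5, 18 without wild type 3 and 2 and 3 without wild types 1 and 2 (28.9, 32.9, 4.34 and 9.32% of all genes). The count of 5 was 10, 12, 2 and 3 in the same order (29.4, 32.6, 5.49 and 9.62%). The genotypes did not overlap in 3 genes of each table, against 4.76% and 4.78% of all genes: Dnajb12 and Hspbap1 in both, Dnajc9 in the first and Dnajc19 in the second. The median log2 change was -0.027 in the first table and -0.0016 in the second, against 0.0069 and 0.0064 for all genes.

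**Figure D2:**
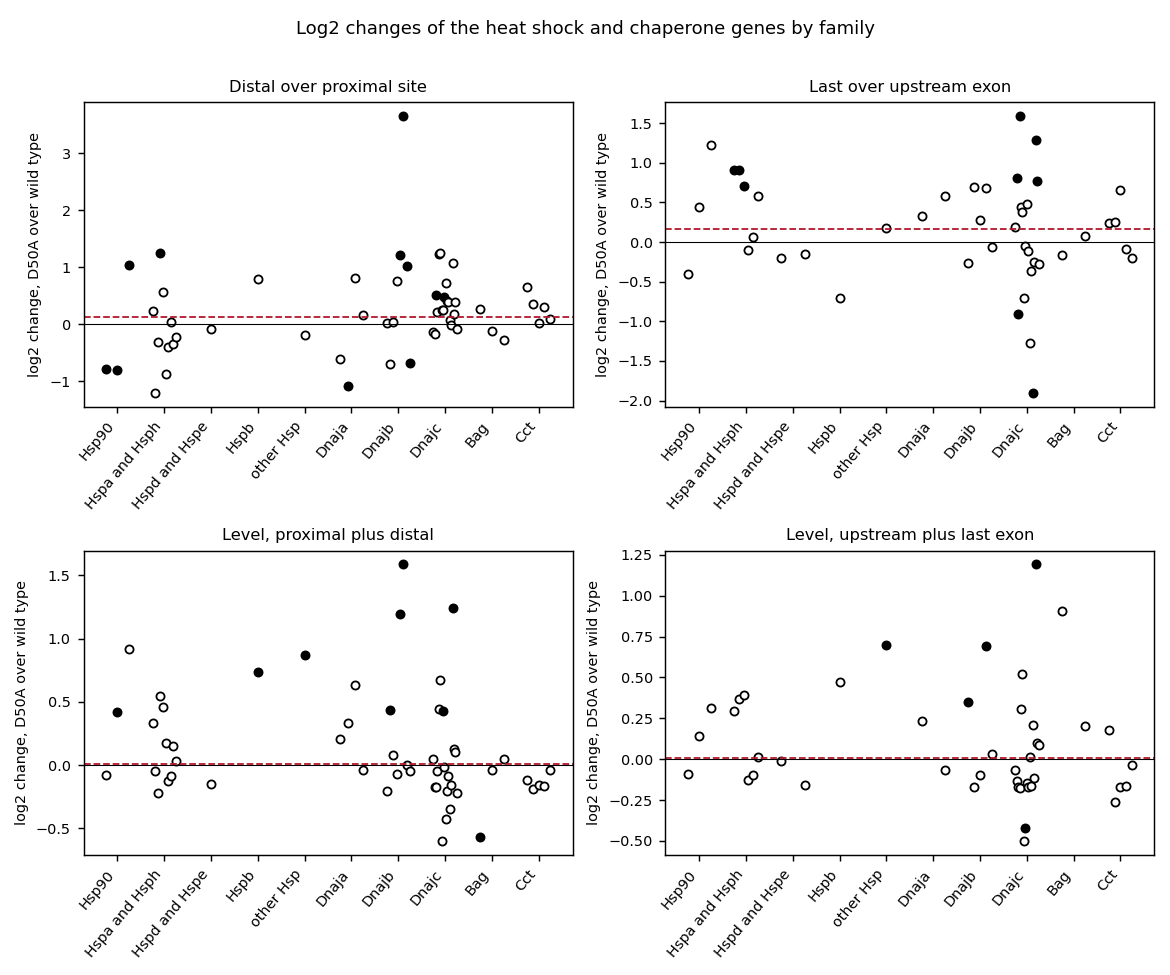
Log2 change, D50A over wild type, of each chaperone gene by family in the 4 comparisons (distal over proximal site, 3′-most over upstream exon, and the level in each table). Filled points have an unadjusted p under 0.05 in edgeR, the dashed line is the median of all genes tested, and Dnajb5 at 3.65 is the highest point for the distal site.

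The 3 HSP90 genes gave usage values in opposite directions. Hsp90aa1, the stress-inducible cytosolic HSP90, had a distal share of 2.502, 3.03, 3.50, 6.09 and 5.74% in mutants 1 to 5, against 7.40, 6.39 and 6.29% in wild types 1 to 3. All 5 mutants lay below all 3 wild types, with mutants 4 and 5 nearest to them. The distal site lies 619 bases beyond the proximal one, and the usage change was -0.78 ± 0.31 (SE) on the log2 scale with an edgeR adjusted p of 0.380. The distal site had 5.85, 7.40, 8.03, 13.9 and 15.4 CPM in mutants 1 to 5, against 20.3, 16.9 and 14.2 CPM in wild types 1 to 3, while the far larger proximal site had 231 CPM ± 15.2 in mutants and 237 CPM ± 23.3 in wild type. The level had means of 241 CPM ± 16.9 in mutants and 255 CPM ± 26.1 in wild type and a log2 change of -0.080 (95% interval -0.34 to 0.18).

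Hsp90ab1, the constitutive cytosolic HSP90 and among the most abundant chaperone mRNAs, used its distal site in at most 0.136% of reads in any library. The usage change of -0.80 ± 0.32 (SE) there (edgeR adjusted p = 0.380) rests on 10 to 37 distal reads per library. Between exons, by contrast, the shares were large: the 3′-most exon held 47.4, 46.0, 37.2, 44.9 and 32.8% in mutants 1 to 5, against 33.1, 30.5 and 39.9% in wild types 1 to 3. Mutants 1, 2 and 4 lay above every wild type, and mutants 3 and 5 lay among them. Reads in the 3′-most exon were 3175, 3162, 2519, 2875 and 2350.5 CPM in mutants 1 to 5, against 1734, 2173 and 2434 CPM in wild types 1 to 3. The upstream exon of Hsp90ab1 had 3967 CPM ± 562 in mutants and 4046 CPM ± 797 in wild type, which differed by less than the spread between mice. The 2 tables therefore gave different levels for this gene: the 3′-most exon sites alone gave 2129 CPM ± 279.8 in mutants and 1589 CPM ± 272 in wild type, a log2 change of 0.42 ± 0.16 (SE) with an edgeR adjusted p of 0.343, and the sum with the upstream exon gave 0.14 (95% interval -0.15 to 0.43).

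Hsp90b1, the HSP90 of the endoplasmic reticulum, had its reads divided between exons as well. Its 3′-most exon held 72.3, 64.2, 46.5, 69.7 and 32.5% in mutants 1 to 5, against 23.6, 29.5 and 62.0% in wild types 1 to 3. Mutants 1, 2 and 4 and wild type 3 were high, mutant 3 was between, and mutant 5 lay with wild types 1 and 2. The usage change toward the 3′-most exon was 1.22 ± 0.61 (SE) with an edgeR adjusted p of 0.378. Within that exon 2 sites 52 bases apart had distal shares of 98.9, 98.2, 97.9, 99.1 and 97.0% in mutants 1 to 5, against 94.8, 96.9 and 97.8% in wild types 1 to 3. That change was 1.03 ± 0.43 (SE) (edgeR adjusted p = 0.380), and the proximal site behind it had only 12 to 27 reads per library. Distal reads were 148, 119.9, 48.4, 134 and 34.4 CPM in mutants 1 to 5, against 26.6, 31.6 and 93.8 CPM in wild types 1 to 3. Upstream exon reads of Hsp90b1 ran the other way in size, with 84.7 CPM ± 10.5 in mutants and 104 CPM ± 22.2 in wild type.

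**Figure D3:**
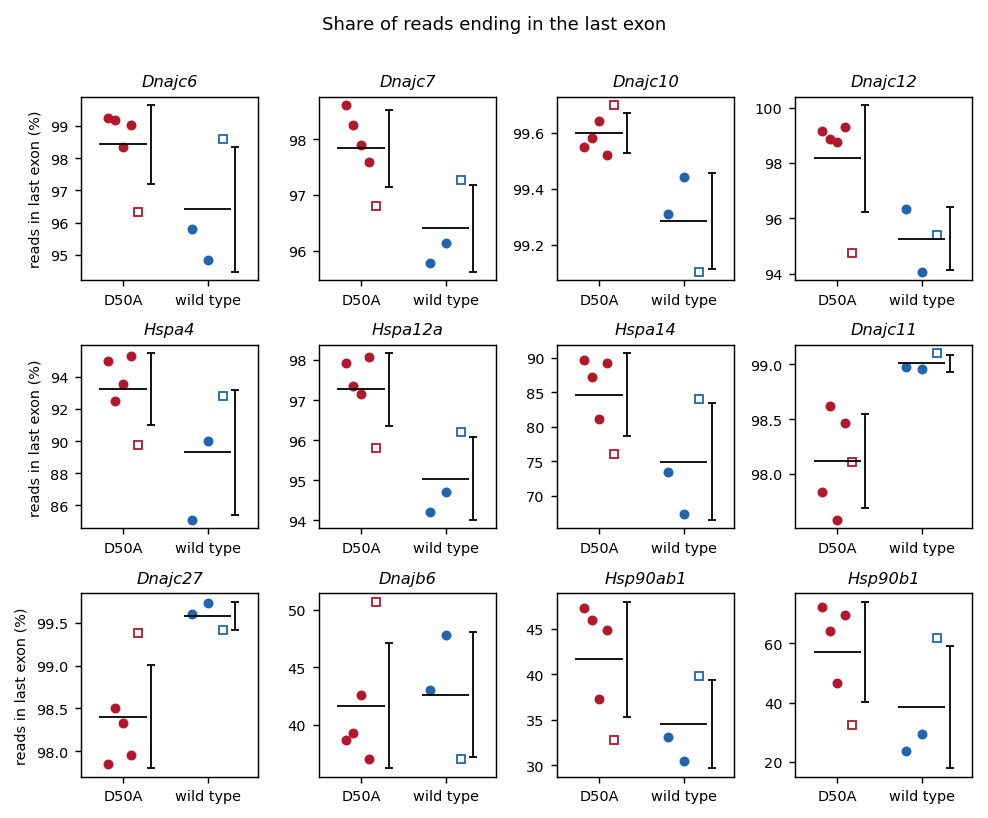
Share of reads in the 3′-most exon, in percent of reads in the upstream and the 3′-most exon, for the 9 chaperone genes with an unadjusted p under 0.05 and for Dnajb6, Hsp90ab1 and Hsp90b1, which the text describes (5 D50A mice left, 3 wild-type mice right). Horizontal lines are means, error bars are SD, and open squares are mutant 5 and wild type 3; Hsp90b1 spans 32.5 to 72.3% in mutants and 23.6 to 62.0% in wild types.

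Levels of the HSP70 and HSP110 genes overlapped between the genotypes in both tables. At an unadjusted p under 0.05, edgeR listed 0 of 10 in the first table (14.3% of all genes) and 0 of 6 in the second (15.1%). Hspa8, the constitutive HSP70 that also strips clathrin from vesicles, was the most abundant, with 2133, 2082, 2304, 2203 and 2452 CPM in mutants 1 to 5, against 2401, 2504 and 2214 CPM in wild types 1 to 3. Its genotypes overlapped and the log2 change was -0.086 (95% interval -0.34 to 0.17). Hspa8 used its distal site in at most 0.0592% of reads, so its site usage rests on few reads. Hspa5 (BiP), the HSP70 of the endoplasmic reticulum, had 1659.9 CPM ± 256 in mutants and 1810.0 CPM ± 156 in wild type, and its distal shares were 43.8, 43.1, 43.4, 53.4 and 54.1% in mutants 1 to 5, against 54.9, 56.3 and 52.1% in wild types 1 to 3. Mutants 1 to 3 formed the low end, and mutants 4 and 5 lay with wild type. The change of -0.40 ± 0.19 (SE) had an edgeR adjusted p of 0.401, between sites only 26 bases apart.

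Hspa14, the HSP70 that works on the ribosome with the J-domain protein of Dnajc2, was the member of this family listed in both usage comparisons. Its distal share was 85.3, 85.9, 78.2, 73.0 and 61.2% in mutants 1 to 5, against 58.8, 46.3 and 71.8% in wild types 1 to 3. Mutants 1 to 4 were above all wild types, mutant 5 lay between wild types 1 and 3, and the change was 1.25 ± 0.50 (SE) (edgeR adjusted p = 0.380). In the second table its 3′-most exon share was 89.7, 87.2, 81.1, 89.2 and 76.0% in mutants 1 to 5, against 73.4, 67.3 and 84.1% in wild types 1 to 3. That change of 0.90 ± 0.40 (SE) had an edgeR adjusted p of 0.338, and wild type 3 lay above mutants 3 and 5. The distal site had 18.2 CPM ± 5.68 in mutants and 9.95 CPM ± 5.58 in wild type, whereas the proximal site had 5.14 CPM ± 1.73 in mutants and 6.05 CPM ± 0.814 in wild type.

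Hspa4, an HSP110-type nucleotide exchange factor, also leaned toward the 3′-most exon, with 95.0, 92.5, 93.6, 95.3 and 89.8% in mutants 1 to 5, against 85.1, 90.0 and 92.8% in wild types 1 to 3. Wild type 1 was lowest, mutants 1 and 4 were highest, and the genotypes overlapped. The change was 0.71 ± 0.33 (SE) with an edgeR adjusted p of 0.353. Hspa12a, an atypical HSP70 relative, had 3′-most exon shares of 97.9, 97.4, 97.2, 98.1 and 95.8% in mutants 1 to 5, against 94.2, 94.7 and 96.2% in wild types 1 to 3. All mutants but mutant 5 lay above all wild types. Its change of 0.91 ± 0.30 (SE) had an edgeR adjusted p of 0.282; without mutant 5 it was 1.09 with an adjusted p of 0.0442. Hsph1, the stress-inducible HSP110, had distal shares of 10.9, 10.5, 11.0, 11.0 and 11.4% in mutants 1 to 5, against 13.2, 11.9 and 12.5% in wild types 1 to 3. The genotypes did not overlap although the means were close, at 11.0% ± 0.322 in mutants and 12.5% ± 0.667 in wild type. Distal shares of the vascular Hspa12b rest on its low level, 2.22 CPM ± 0.666 in mutants and 2.24 CPM ± 0.633 in wild type. Mitochondrial Hspa9 had 42.0% ± 5.12 in mutants and 48.1% ± 5.50 in wild type at the distal site and 169.9 CPM ± 9.10 in mutants and 153 CPM ± 4.96 in wild type in all.

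The mitochondrial chaperonin gave like values in both genotypes. Hspd1 (HSP60), the ring subunit, was measured in the second table only, with 930.5, 969, 929, 861 and 1068 CPM in mutants 1 to 5, against 1086, 956 and 840.0 CPM in wild types 1 to 3. The genotypes overlapped, and 99.0 to 99.3% of its reads lay in the 3′-most exon in every library. Hspe1 (HSP10), the lid of the ring, had 104 CPM ± 10.1 in mutants and 116 CPM ± 23.1 in wild type and distal shares of 43.9, 47.4, 54.7, 36.5 and 50.8% in mutants 1 to 5, against 51.9, 49.1 and 42.9% in wild types 1 to 3. Both sets overlapped widely.

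A pair of genes carries an Hsp prefix without being a classical chaperone. Hspbap1, named for binding the small heat shock protein HSPB1, had levels of 3.11, 4.19, 3.42, 2.56 and 2.96 CPM in mutants 1 to 5, against 1.57, 1.91 and 1.80 CPM in wild types 1 to 3. Every mutant lay above every wild type in both tables. These are few reads, the log2 change was 0.87 ± 0.22 (SE) in the first table and 0.70 ± 0.20 (SE) in the second, and the edgeR adjusted p values were 0.343 and 0.327. Hspb11, an intraflagellar transport subunit, had 10.1, 11.0, 10.4, 13.1 and 7.26 CPM in mutants 1 to 5, against 6.93, 3.76 and 8.27 CPM in wild types 1 to 3. Mutant 5 lay among the wild types, and the change was 0.73 ± 0.27 (SE) (edgeR adjusted p = 0.343). Its site usage had means of 50.4% ± 13.4 in mutants and 36.9% ± 12.7 in wild type for the distal share.

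**Figure D4:**
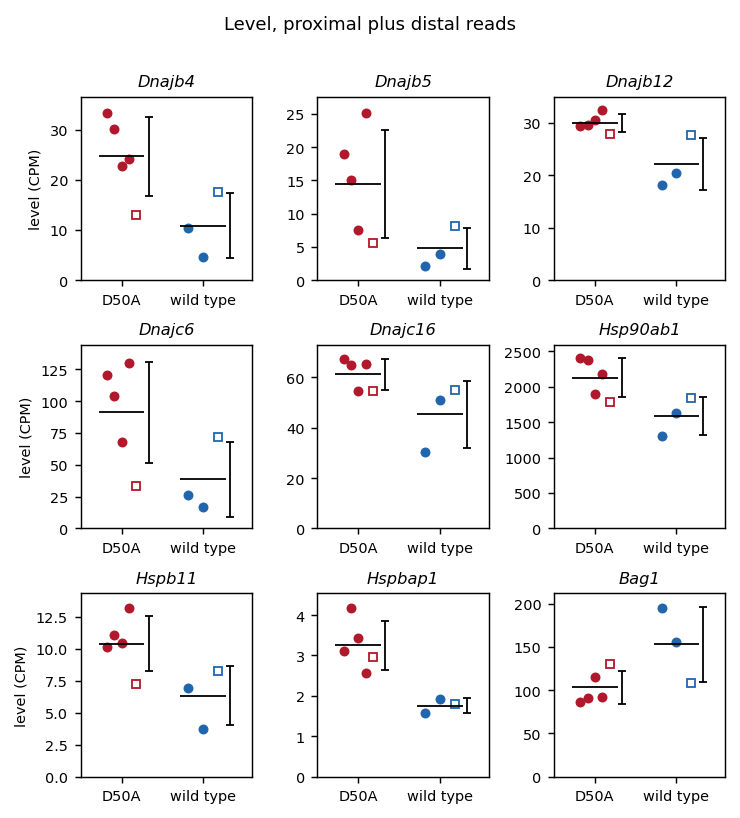
Level in CPM, from the sum of proximal and distal reads, of the 9 chaperone genes with an unadjusted p under 0.05 (5 D50A mice left, 3 wild-type mice right; each axis starts at 0). Horizontal lines are means, error bars are SD, and open squares are mutant 5 and wild type 3; only Dnajb12 and Hspbap1 have all 5 mutants above all wild types.

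Of the 8 Dnajb genes, 4 had an unadjusted p under 0.05 for site usage within the 3′-most exon, where 12.9% of all genes did. Dnajb5, a cytosolic J-domain protein, had the largest positive usage change of all 7876 genes tested by edgeR. Its distal share was 92.5, 93.0, 84.0, 89.0 and 37.1% in mutants 1 to 5, against 15.8, 6.06 and 67.0% in wild types 1 to 3. Mutants 1 to 4 were above all wild types, and mutant 5 lay between wild types 1 and 3. Distal reads numbered 186, 174, 79, 314 and 23 in mutants 1 to 5, against 3, 4 and 67 in wild types 1 to 3. Proximal reads numbered 15, 13, 15, 39 and 39 in mutants 1 to 5, against 16, 62 and 33 in wild types 1 to 3. The shares of wild types 1 and 2 thus rest on 3 and 4 distal reads. The change was 3.65 ± 1.25 (SE), with an adjusted p of 0.380 in edgeR and of 0.0374 in DESeq2, where it was 4.29. Over the edgeR fits that leave out 1 library it ran from 2.47 to 5.82. The level was 19.0, 15.1, 7.48, 25.1 and 5.56 CPM in mutants 1 to 5, against 2.12, 3.94 and 8.19 CPM in wild types 1 to 3, a log2 change of 1.59 ± 0.55 (SE) and an edgeR adjusted p of 0.343.

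Dnajb4, a close relative of Dnajb5 and of the stress-inducible Dnajb1, also had mutants 1 to 4 above all wild types in distal share. Its distal share was 85.3, 87.8, 83.3, 86.4 and 72.9% in mutants 1 to 5, against 71.0, 51.9 and 79.5% in wild types 1 to 3. Wild type 2 was lowest, and mutant 5 lay between wild types 1 and 3. The usage change was 1.21 ± 0.45 (SE) (edgeR adjusted p = 0.380). Levels were 33.4, 30.3, 22.8, 24.1 and 12.9 CPM in mutants 1 to 5, against 10.4, 4.60 and 17.6 CPM in wild types 1 to 3. Again the mutants other than mutant 5 lay above all wild types, with a log2 change of 1.19 ± 0.42 (SE) in the first table and 0.69 ± 0.24 (SE) in the second and edgeR adjusted p values of 0.343 and 0.327. Dnajb1 itself, the classical HSP40, had 90.8% ± 1.45 in mutants and 90.8% ± 1.16 in wild type at the distal site and 78.0 CPM ± 9.93 in mutants and 89.9 CPM ± 16.0 in wild type in all, with overlapping genotypes.

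Dnajb6, which holds back aggregation of polyglutamine proteins, had small distal shares of 12.5, 10.9, 10.4, 9.71 and 5.03% in mutants 1 to 5, against 4.20, 3.44 and 7.70% in wild types 1 to 3. Only mutant 5 lay among the wild types. The sites are 81 bases apart, and the change was 1.03 ± 0.36 (SE) with an edgeR adjusted p of 0.380. Most Dnajb6 reads ended in the upstream exon, and the 3′-most exon held 38.7, 39.3, 42.6, 37.0 and 50.7% in mutants 1 to 5, against 43.1, 47.8 and 37.0% in wild types 1 to 3. Here the genotypes overlapped, with a change of -0.060 (95% interval -0.58 to 0.47), and the level of 787 CPM ± 35.2 in mutants and 771 CPM ± 31.2 in wild type was close in both. Dnajb9, an endoplasmic reticulum J-domain protein induced by unfolded proteins, leaned toward the proximal site, with distal shares of 41.9, 41.0, 46.4, 49.8 and 56.6% in mutants 1 to 5, against 62.3, 62.7 and 51.3% in wild types 1 to 3. Mutants 1 to 4 lay below all wild types and mutant 5 among them. That change was -0.68 ± 0.28 (SE) (edgeR adjusted p = 0.380). Dnajb12, an endoplasmic reticulum membrane J-domain protein, had levels of 29.3, 29.5, 30.6, 32.5 and 27.8 CPM in mutants 1 to 5, against 18.2, 20.5 and 27.7 CPM in wild types 1 to 3. The lowest mutant exceeded the highest wild type by a narrow margin, and the log2 change was 0.44 ± 0.16 (SE) in the first table and 0.35 ± 0.12 (SE) in the second (edgeR adjusted p = 0.343 and 0.327). Dnajb2, a neuronal J-domain protein that binds ubiquitin, had 98.7% ± 0.544 in mutants and 97.8% ± 0.679 in wild type at its distal site.

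Among the 4 Dnaja genes, which encode J-domain partners of HSP70, Dnaja2 had distal shares of 4.24, 4.35, 6.87, 9.92 and 15.7% in mutants 1 to 5, against 19.3, 14.0 and 11.2% in wild types 1 to 3. The mutant values spread widely, mutants 1 to 4 were below all wild types, and mutant 5 was above wild types 2 and 3. Its change was -1.09 ± 0.46 (SE) with an edgeR adjusted p of 0.380. Dnaja1, the most abundant of the 4, had a distal share of 78.8% ± 4.27 in mutants and 84.8% ± 4.93 in wild type, a change of -0.61 (95% interval -1.24 to 0.011) and a level of 660.4, 571, 486, 698 and 391 CPM in mutants 1 to 5, against 424, 406 and 627 CPM in wild types 1 to 3. Both of its readings overlapped between genotypes. Dnaja3, in mitochondria, and Dnaja4 had distal shares of 84.9% ± 9.71 in mutants and 78.1% ± 5.72 in wild type and of 81.9% ± 1.90 in mutants and 80.0% ± 2.65 in wild type.

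Dnajc proteins carry the J domain on otherwise unlike proteins, and 6 of 17 had an unadjusted p under 0.05 for usage between exons, against 14.0% of all genes. Dnajc6, neuronal auxilin, recruits HSC70 to uncoat clathrin vesicles at synapses. Its level was 121, 104, 67.9, 129.7 and 33.5 CPM in mutants 1 to 5, against 26.1, 17.1 and 72.2 CPM in wild types 1 to 3. Mutants 1, 2 and 4 were highest, wild type 3 exceeded mutants 3 and 5, and wild type 2 was lowest. The log2 change was 1.25 ± 0.53 (SE) in the first table and 1.19 ± 0.49 (SE) in the second, with edgeR adjusted p values of 0.343 and 0.327. Its 3′-most exon share was 99.2, 99.2, 98.3, 99.0 and 96.3% in mutants 1 to 5, against 95.8, 94.8 and 98.6% in wild types 1 to 3. The upstream site had 10 to 18 reads per library, and the change was 1.29 ± 0.56 (SE) (edgeR adjusted p = 0.328).

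Dnajc27, a Rab-like GTPase with a J domain, had the smallest p of the second table's chaperone genes. Reads in its upstream exon numbered 27, 22, 21, 37 and 5 in mutants 1 to 5, against 3, 3 and 9 in wild types 1 to 3. All mutants but mutant 5 had more than any wild type. The 3′-most exon share was 97.9, 98.5, 98.3, 97.9 and 99.4% in mutants 1 to 5, against 99.6, 99.7 and 99.4% in wild types 1 to 3. Here the genotypes did not overlap, though mutant 5 lay close to wild type 3. The change was -1.90 ± 0.45 (SE), with an unadjusted p of 8.34e-04 and an adjusted p of 0.282 in edgeR. Leaving out mutant 5 gave -2.08 with an adjusted p of 0.0211, and leaving out wild type 3 gave an adjusted p of 0.0477.

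Dnajc12, which assists the aromatic amino acid hydroxylases, divided the libraries in the same way and in the opposite direction. Upstream exon reads numbered 4, 6, 6, 4 and 20 in mutants 1 to 5, against 19, 36 and 23 in wild types 1 to 3. Mutants 1 to 4 had 4 to 6 reads each, and mutant 5 had about as many as wild types 1 and 3. The share of the 3′-most exon was 99.2, 98.8, 98.8, 99.3 and 94.8% in mutants 1 to 5, against 96.3, 94.1 and 95.4% in wild types 1 to 3. Its change was 1.59 ± 0.53 (SE) with an edgeR adjusted p of 0.282; without mutant 5 it was 2.30 with an adjusted p of 0.0146. The upstream reads of Dnajc12 and Dnajc27 separate the libraries as the cerebellar granule cell markers do, and the part of those cells was not tested.

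Dnajc11, a mitochondrial J-domain protein, was apart between genotypes at both ends. Its distal share was 31.3, 35.5, 33.2, 27.2 and 24.8% in mutants 1 to 5, against 22.7, 24.1 and 23.4% in wild types 1 to 3. Every mutant exceeded every wild type, and the change was 0.50 ± 0.22 (SE) (edgeR adjusted p = 0.381). Its 3′-most exon share, 97.8, 98.6, 97.6, 98.5 and 98.1% in mutants 1 to 5, against 99.0, 99.0 and 99.1% in wild types 1 to 3, was lower in every mutant. That change of -0.90 ± 0.35 (SE) (edgeR adjusted p = 0.301) rests on 5 to 15 upstream reads per library. Dnajc10, an endoplasmic reticulum reductase, had 3′-most exon shares of 99.5, 99.6, 99.6, 99.5 and 99.7% in mutants 1 to 5, against 99.3, 99.4 and 99.1% in wild types 1 to 3. The genotypes were apart on 4 to 11 upstream reads per library, with a change of 0.80 ± 0.35 (SE) (edgeR adjusted p = 0.328). Dnajc7, a cytosolic co-chaperone of HSP70 and HSP90, had 98.6, 98.3, 97.9, 97.6 and 96.8% in mutants 1 to 5, against 95.8, 96.1 and 97.3% in wild types 1 to 3. Mutants 1 to 4 were above all wild types and mutant 5 between them, and the change was 0.77 ± 0.29 (SE) (edgeR adjusted p = 0.301).

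Dnajc18 had distal shares of 96.5, 95.9, 96.3, 95.6 and 95.7% in mutants 1 to 5, against 93.8, 95.8 and 93.8% in wild types 1 to 3, between sites 3926 bases apart. Wild type 2 lay among the mutants, and the change was 0.47 ± 0.20 (SE) (edgeR adjusted p = 0.380). Dnajc16 had 67.1, 64.8, 54.7, 65.2 and 54.4 CPM in mutants 1 to 5, against 30.2, 50.9 and 55.0 CPM in wild types 1 to 3. Wild type 1 alone was far below the rest, and the log2 change was 0.43 ± 0.19 (SE) (edgeR adjusted p = 0.343). Dnajc19, of the mitochondrial import motor, had a level in the second table of 15.3, 15.7, 12.2, 16.0 and 13.4 CPM in mutants 1 to 5, against 25.2, 17.2 and 16.2 CPM in wild types 1 to 3. All mutants were below all wild types, by a narrow margin for mutant 4, with a log2 change of -0.42 ± 0.18 (SE) (edgeR adjusted p = 0.327). Dnajc5, the cysteine string protein of synaptic vesicles and the most abundant Dnajc mRNA of the first table, had 1089.8 CPM ± 176 in mutants and 1217 CPM ± 134 in wild type and distal shares of 86.8% ± 0.864 in mutants and 87.0% ± 2.19 in wild type. Dnajc14, of the endoplasmic reticulum membrane, had 86.6, 86.2, 70.8, 87.8 and 58.0% in mutants 1 to 5, against 47.3, 53.1 and 82.2% in wild types 1 to 3 at its distal site. Mutants 1, 2 and 4 and wild type 3 were high, and the change of 1.25 ± 0.69 (SE) had an edgeR adjusted p of 0.425.

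Several genes shared 1 pattern at the level of single sites, and the genes with it were not counted, among chaperone genes or all genes. The proximal site varied less between libraries, while the distal site was high in mutants 1, 2 and 4 and in wild type 3. The distal site of Dnajc6 had 119, 102, 66.3, 128 and 32.0 CPM in mutants 1 to 5, against 25.2, 15.8 and 70.8 CPM in wild types 1 to 3. Its proximal site ranged from 0.894 to 1.79 CPM, which rests on few reads per library. Dnajc14 had 51.3, 45.2, 23.9, 51.9 and 13.4 CPM in mutants 1 to 5, against 8.83, 9.80 and 40.0 CPM in wild types 1 to 3 at the distal site and 8.38 CPM ± 1.31 in mutants and 9.06 CPM ± 0.674 in wild type at the proximal one. For Hspa4 the distal site had 354, 294, 239.7, 345 and 186 CPM in mutants 1 to 5, against 119, 186 and 291 CPM in wild types 1 to 3. Its proximal site had 27.1 CPM ± 3.46 in mutants and 27.0 CPM ± 1.75 in wild type. In all of these, mutant 5 and wild types 1 and 2 were low and mutant 3 was between. The summed neuronal markers Rbfox3, Snap25, Syt1 and Map2 ordered the libraries in much the same way, as did the sum of the vascular markers Flt1 and Rgs5, at 483, 422, 279.5, 526 and 199 CPM in mutants 1 to 5, against 189, 163 and 357 CPM in wild types 1 to 3. The 3 astrocyte markers of the second table (Gfap, Slc1a2 and Slc1a3) did so too, at 2458, 2163, 1546, 2406 and 1147 CPM in mutants 1 to 5, against 1083, 1177 and 2022 CPM in wild types 1 to 3. The 3 astrocyte markers of the first table (Aqp4, Slc1a2 and Aldoc) did not. They summed to 3325, 3170, 2953, 3392 and 3431 CPM in mutants 1 to 5, against 4002, 3838 and 3640 CPM in wild types 1 to 3. Markers of excitatory neurons of cortex and hippocampus had another order in the first table. Their sum was 12600, 12994, 14459, 11283 and 13992 CPM in mutants 1 to 5, against 7245, 14118 and 10282 CPM in wild types 1 to 3. The part of these lists in these values was not tested. The likeness of mutant 5 to wild type and of wild type 3 to mutants was common among all levels of the first table. There mutant 5 lay nearer to the wild-type mean in 42 of 54 chaperone genes (77.8%; 70.5% of all genes). Wild type 3 lay nearer to the mutant mean in 42 of 54 (77.8%; 77.3% of all genes).

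**Figure D5:**
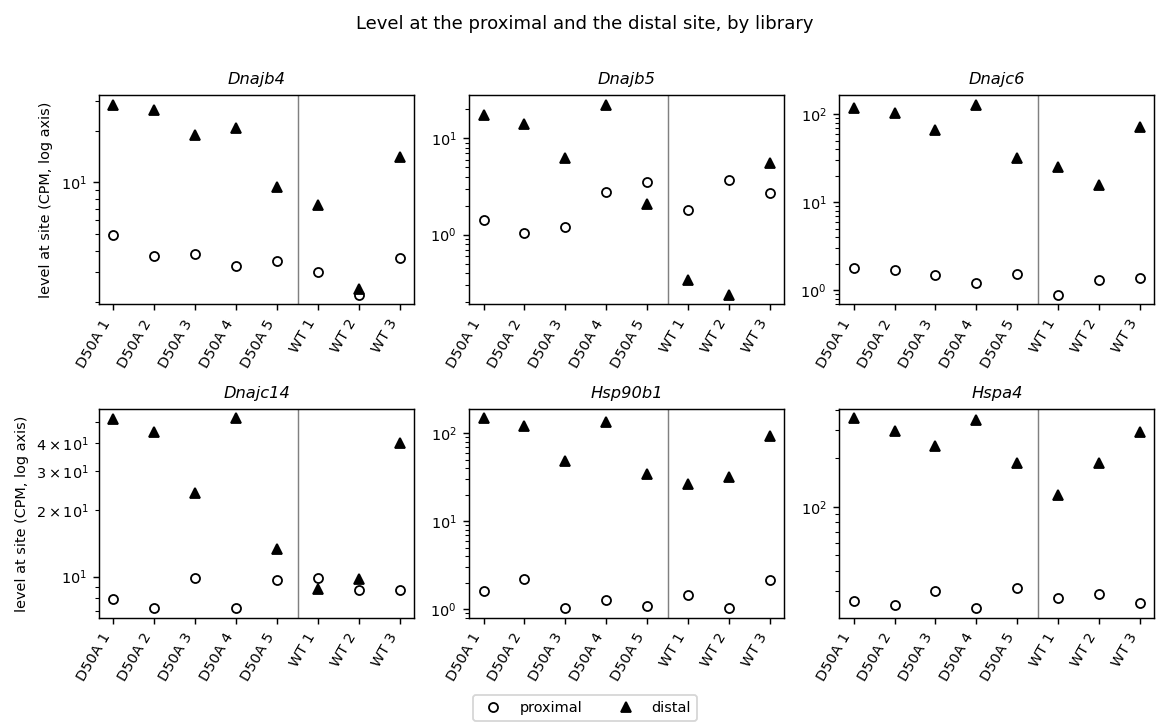
Level in CPM on a log axis at the proximal (open circles) and the distal site (filled triangles) of 6 chaperone genes, for each D50A library (left of the line) and each wild-type library (right). In Dnajc6, Dnajc14, Hsp90b1 and Hspa4 the proximal level varies less than the distal level, which is high in D50A 1, 2 and 4 and in wild type 3.

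The sites lay 25 to 4649 bases apart, with a median of 451.5 bases for the 54 chaperone genes and 629 for all genes, and 16 pairs (29.6%, against 21.3% of all pairs) were at most 100 bases apart. Among the 11 genes with an unadjusted p under 0.05 were pairs as close as 39 bases (Hsp90ab1) and 41 bases (Hspa14) and as far as 3926 bases (Dnajc18). The distal site held over 50% of reads in 31 of 54 genes in mutants and in 29 in wild type, against 53.2% and 51.4% of all genes.

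BAG genes, which release HSP70 from its substrate, had 1 member with an unadjusted p under 0.05, for level in the first table (14.3% of all genes). Bag1 had levels of 85.9, 91.4, 116, 92.0 and 131 CPM in mutants 1 to 5, against 195, 155 and 109 CPM in wild types 1 to 3. Mutants 1, 2 and 4 lay below all wild types, mutants 3 and 5 lay between wild types 2 and 3, and the log2 change was -0.57 ± 0.21 (SE) (edgeR adjusted p = 0.343). Bag5, which slows HSP70 cycling in neurons, had 68.7 CPM ± 5.30 in mutants and 66.4 CPM ± 5.38 in wild type. Bag2, which inhibits the ubiquitin ligase CHIP, had 4.13 CPM ± 1.87 in mutants and 2.30 CPM ± 0.960 in wild type in the second table, with overlapping genotypes. Bag6, which guides tail-anchored and misfolded proteins, had 122 CPM ± 14.3 in mutants and 106 CPM ± 24.4 in wild type, and nearly all its reads lay in the 3′-most exon (99.8% ± 0.152 in mutants and 99.8% ± 0.0627 in wild type). Distal shares of Bag1, Bag4 and Bag5 averaged 79.9% ± 3.12 in mutants and 76.8% ± 1.98 in wild type, 37.9% ± 3.94 in mutants and 39.9% ± 5.42 in wild type and 62.4% ± 3.50 in mutants and 66.8% ± 6.93 in wild type, and edgeR listed 0 of the 3 at an unadjusted p under 0.05 (12.9% of all genes).

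CCT genes encode the cytosolic ring that folds actin and tubulin. At an unadjusted p under 0.05, edgeR listed 0 of the 6 measured in any of the 4 comparisons (12.9 to 15.1% of all genes). Cct7, the most abundant, had 896, 964, 989, 891 and 1182 CPM in mutants 1 to 5, against 1215, 1185 and 908 CPM in wild types 1 to 3. Wild type 3 lay among the mutants and mutant 5 with wild types 1 and 2, and the log2 change was -0.16 (95% interval -0.49 to 0.16). Cct8 had 335, 338, 327, 331 and 340.2 CPM in mutants 1 to 5, against 355, 335 and 339 CPM in wild types 1 to 3. That log2 change was -0.037 (95% interval -0.25 to 0.18). The distal share had a positive log2 change in all 5 of the Cct genes of the first table, where 59.2% of all genes lay above 0. The edgeR adjusted p values were 0.404 or more, and the highest change was 0.66, for Cct4.

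Partners of these chaperones outside the prefixes were read from a list of 62 further proteostasis genes, of which 42 and 35 were tested in the first and second table. edgeR and DESeq2 called 0 of them in any comparison. At an unadjusted p under 0.05, edgeR listed 3 and 4 for usage (12.9 and 14.0% of all genes) and 4 and 8 for level (14.3 and 15.1%). Hsf1, the transcription factor that drives the heat shock response, had 9.06, 8.37, 5.89, 7.60 and 3.95 CPM in mutants 1 to 5, against 2.35, 1.97 and 5.65 CPM in wild types 1 to 3. Mutants 1 to 4 were above all wild types and mutant 5 lay between wild types 1 and 3. The log2 change was 1.07 ± 0.39 (SE) in the first table and 0.83 ± 0.26 (SE) in the second, with edgeR adjusted p values of 0.343 and 0.327. Hsf2, its paralog, had distal shares of 66.6, 63.1, 61.6, 53.3 and 54.0% in mutants 1 to 5, against 47.8, 49.2 and 52.4% in wild types 1 to 3. All mutants exceeded all wild types, with a change of 0.58 ± 0.23 (SE) (edgeR adjusted p = 0.380). Eif2ak3 (PERK), a sensor of unfolded protein in the endoplasmic reticulum, had 3′-most exon shares of 26.8, 26.6, 18.4, 31.4 and 15.6% in mutants 1 to 5, against 6.47, 7.20 and 16.7% in wild types 1 to 3. Wild type 3 lay above mutant 5 alone, and the change was 1.51 ± 0.41 (SE) (edgeR adjusted p = 0.282).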

How the data were processed

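Per the labels' protocols, libraries of total brain RNA were prepared by the QuantSeq REV method for 3′ ends, so that reads mark 3′ ends and counts need no division by transcript length. The authors deposited whole-number read counts, with 1 column for each library and site, per the file headers, and the values were used unscaled. The submitters' processing notes name STAR 2.5, HTSeq 0.6.0, FastQC 0.11.3 and mm9. The sources used here give neither the role of each tool nor the choice of sites nor the use of strand and of multiply mapping reads. Overlapping genes, and Hspa8, Hsp90ab1, Hspd1 and Hspe1, which have many processed copies in the genome, are uncertain.

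Site positions are those of mm9, without a chromosome, and only distances were used. Genes averaging 20 or more reads per library, with 10 or more at each site over all libraries, were tested: 7876 and 6001, among them all 54 and 44 chaperone genes. Usage was tested with edgeR 4.0.16 (quasi-likelihood F test, library as a block, site by genotype), and level with the sum of both sites and TMM scaling, in R 4.3.3. Positive log2 changes stand for a larger part of reads at the distal site or 3′-most exon, or a higher level, in mutants. The SE was derived from the log2 change and F, and 95% intervals from the SE and the fit's degrees of freedom. Benjamini-Hochberg adjustment covered each whole table, with a threshold of 0.05. Alternatives were DESeq2 1.42.0, limma 3.58.1 on log2 ratios with 0.5 added, other scaling, no filter, and each library left out. The fits were run on simulated counts, drawn independently with a fixed dispersion. Those counts lack the likeness between libraries seen here, so they check the code and not the error rates in these data.

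Genotypes came from the labels, and library numbers follow the order of the records. The labels describe separate animals but name no batch. The chaperone rule reads symbols only, but this rule and the gene lists were set with earlier results of these data known. Named genes are the 2 most abundant of each family and table and all with an unadjusted p under 0.05 or a DESeq2 call, and other members named were chosen after their values were seen. Promoter windows are those of RefSeq, GRCm38.p6.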

Additional observations from a re-analysis of the deposited data

Results flagged for a closer look

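In 34 sets of 5 mutant values, 1 library lay apart from the other 4 by Dixon's test at 95% in 2 sets, and both times it was mutant 5. The sets were those with an unadjusted p under 0.05 in edgeR or a DESeq2 call, and all share the same 5 libraries. The number expected by chance is therefore not known. The distal share of Dnajb5 was 37.1% in mutant 5, against 84.0 to 93.0% in the other mutants. The 3′-most exon share of Dnajc12 was 94.8% in mutant 5, against 98.8 to 99.3% in the other mutants. In both, mutant 5 lay within the range of the wild types, which was 6.06 to 67.0% for Dnajb5 and 94.1 to 96.3% for Dnajc12. Mutant 5 was also the mutant with the cerebellar marker level of wild type, and the part of that level was not tested.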

How the results depend on the processing

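Of 649 values recomputed for 59 results on named genes, 633 kept their direction and their side of the adjusted threshold, 5 passed it, 0 lost it and 11 changed sign. DESeq2 called 1 chaperone gene for the distal site where edgeR called 0, and listed 5 rather than 9 genes between exons. With 1 library left out at a time, the chaperone genes at an unadjusted p under 0.05 numbered 1 to 22 for the distal site, 4 to 12 between exons, and 2 to 18 and 2 to 12 for level in the first and second table, and those called between exons numbered 0 to 3. The share of all genes listed or called in the same fits moved as well, as given with the counts. Signs turned in 4 results, each with a value near 0: Dnajb6 between exons ran from -0.23 to 0.095, and the log2 level ran from -0.064 to 0.044 for Dnajb6 (-0.00015 in DESeq2), from -0.040 to 0.083 for Hsph1 and from -0.10 to 0.074 for Hspd1. The cause was not tested, except that fits with 1 library less hold fewer samples. Scaling by DESeq2's method, leaving out the filter and, for usage, limma moved no other count by more than 1.5 times. No paired analysis was possible because the labels give neither pairing nor replicate numbers. Few reads at the minor site limit several usage values: Dnajb5 had 3 distal reads in wild type 1, and Dnajc12 and Dnajc27 had 4 and 3 upstream reads in their lowest libraries.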

Other observations

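Levels of folding partners outside the chaperone prefixes were read in both tables. In the first, edgeR listed 4 of 42 at an unadjusted p under 0.05 (14.3% of all genes), 1 higher and 3 lower in mutants (7.29 and 7.05% of all genes). In the second it listed 8 of 35 at an unadjusted p under 0.05, 2 higher and 6 lower in mutants, where 7.6 and 7.47% of all genes were listed, and 0 passed adjustment in edgeR or DESeq2. Sugt1, a co-chaperone of HSP90, had 175, 185, 198, 186 and 215 CPM in mutants 1 to 5, against 337, 241 and 195 CPM in wild types 1 to 3. Wild type 1 stood far above the rest and wild type 3 lay among the mutants, with a log2 change of -0.43 ± 0.17 (SE) (edgeR adjusted p = 0.327). Pfdn6, a subunit of prefoldin, which hands actin and tubulin to CCT, had 196 CPM ± 23.9 in mutants and 256 CPM ± 39.5 in wild type (SD, n = 5 and 3) and a log2 change of -0.39 ± 0.14 (SE) (edgeR adjusted p = 0.327). Pdia4, a disulfide isomerase of the endoplasmic reticulum, had 43.2 CPM ± 8.50 in mutants and 68.0 CPM ± 25.8 in wild type and a log2 change of -0.65 ± 0.24 (SE) (edgeR adjusted p = 0.327). In the first table Pfdn5, another prefoldin subunit, had 384, 426, 480.3, 388 and 548 CPM in mutants 1 to 5, against 925, 618 and 454 CPM in wild types 1 to 3, again with wild type 1 highest and wild type 3 among the mutants.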
